A study of Homo sapiens with 4 samples.

Results

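TGF-beta ligands, their receptors, the latent TGF-beta binding proteins and TGFBI were followed as 10 genes: TGFB1, TGFB2, TGFBR1, TGFBR2, TGFBR3, LTBP1, LTBP2, LTBP3, LTBP4 and TGFBI. The 10 genes were chosen with earlier results of these data known. They were taken by symbol from the 40205 symbols of the count table, and 10 of 10 passed the filter on low counts that left 16120 genes. The data were RNA-seq counts from A549, an established human lung adenocarcinoma cell line, collected 24 h after transfection of small interfering RNA (siRNA) with Lipofectamine iMAX. The controls were 2 libraries with negative control siRNA (control 1 and control 2). The other 2 libraries (Knockdown-670 and Knockdown-732) received siRNA against SBF2-AS1, a long non-coding RNA; what the numbers in these names mean is not stated. No label names separate cultures, so the p-values cover the spread between these libraries, and that spread may be only technical.

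TGF-beta is made as a precursor that is cut by furin and stays bound to its own propeptide in an inactive, latent complex. Latent TGF-beta binding proteins (LTBPs) tie that complex to the extracellular matrix, and integrins or proteases release the ligand. The free ligand joins the receptor kinases TGFBR2 and TGFBR1, which pass the signal to SMAD2 and SMAD3 with the shared partner SMAD4. In lung epithelium the pathway is known for growth arrest, matrix production and the loss of epithelial traits.

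The libraries held 12149767 to 12938143 counts. The targeted SBF2-AS1 was counted 57 and 79 times in controls 1 and 2, against 15 and 18 times in Knockdown-670 and Knockdown-732 (log2 -1.94, SE 0.30, adjusted p = 3.19e-05 in edgeR). It shares 1495 exon bases (32.2% of its annotated exon bases) with SBF2 on the opposite strand. SBF2 was counted 1468 and 1405 times in the controls and 1604 and 1790 times in the knockdown. What part its reads have in the SBF2-AS1 counts was not tested. The keratins KRT8 and KRT18, markers of simple epithelium, had at least 11647 counts in every library, but both were lower in the knockdown (log2 fold change -0.40 and -0.86). Of the other epithelial markers EPCAM was lower (-0.56), KRT19 higher (1.06) and CDH1 not called (0.11), and the sum of the 5 went from 3918 and 4034 CPM to 2566 and 2453 CPM. All 4 markers of A549, the detoxifying enzymes ALDH1A1 (-1.05), ALDH3A1 (-0.97), AKR1B10 (-0.81) and AKR1C1 (-0.53), were lower, with sums of 10331 and 9700 CPM in the controls and 4799 and 5043 CPM in the knockdown. The part of these shifts in the results for the 10 genes was not tested. The alveolar markers SFTPA1, SFTPB, SFTPC and NKX2-1 were each below 1 CPM (counts scaled to a library of standard size) in all 4 libraries, so the defining genes of differentiated alveolar cells were at or near 0. Summed levels of 5 endothelial markers were 0.412 to 0.850 CPM, and 6 of 8 fibroblast markers were below 1 CPM throughout. The summed level of 6 immune markers was 69.3 and 69.9 CPM in the controls and 167 and 184 CPM in the knockdown; CD68, a lysosomal protein, rose (1.57), and CD14 was not called (-0.26). The defining leukocyte genes PTPRC, CD3E and MS4A1 had 1 count between them. In bulk RNA fewer cells of a kind and less RNA per cell cannot be told apart.

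In the knockdown 9 of the 10 genes rose and TGFBR3 fell, in edgeR's quasi-likelihood test at an adjusted p of 0.05. Over all genes tested, 46.3% passed that threshold, 23.5% higher and 22.8% lower. The median log2 fold change was 0.44 for the 10 genes and -0.0024 for all genes tested. As the 10 genes were chosen with earlier results known, this comparison is a description only. For each of the 10 genes the 2 groups of libraries did not overlap, which held for 72.6% of all genes tested. TGFBI changed most, and LTBP1 had the smallest change. Corrected for the GC content and length of transcripts, 6 of the genes were higher and 1 lower, as set out gene by gene further on.

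**Figure D1:**
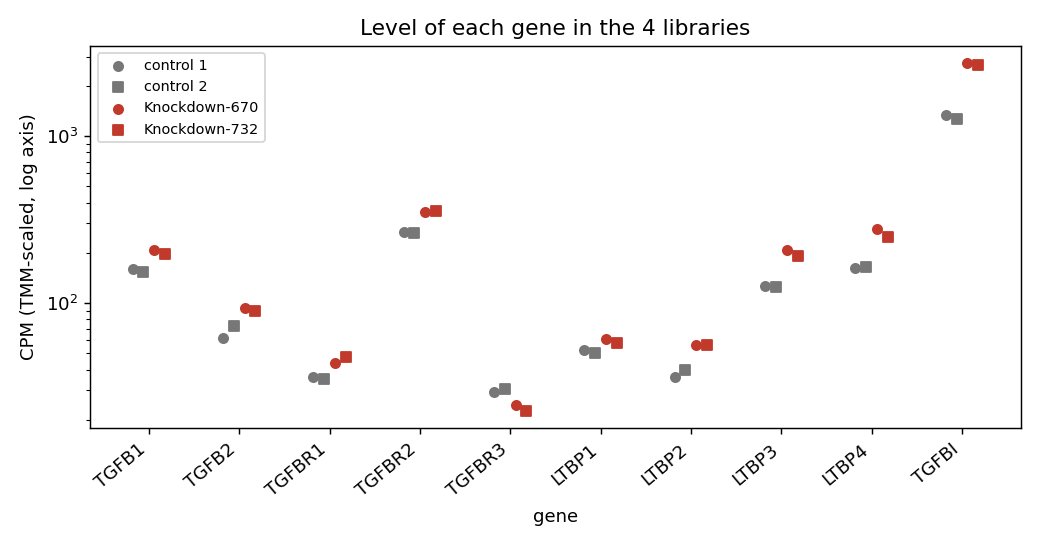
Level of each of the 10 genes in each library, in TMM-scaled CPM on a log axis; grey points are controls and red points the knockdown libraries. For TGFBR3 the red points lie below the grey ones, and for the other 9 genes above; levels of different genes are not comparable here because gene lengths differ.

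The ligand genes TGFB1 and TGFB2 both rose. TGFB1, on the - strand of chromosome 19 (GENCODE on GRCh38, 41301587 to 41353911), stood at 159 and 154 CPM in controls 1 and 2 and at 208 and 198 CPM in Knockdown-670 and Knockdown-732. The rise was 29.4% (log2 fold change 0.37, SE 0.07, edgeR adjusted p = 0.000219), and the 2 controls differed by 0.05 on the same scale. TGFB2, on the + strand of chromosome 1 (218346235 to 218444619), stood at 62.2 and 72.6 CPM in the controls and 94.1 and 89.4 CPM in the knockdown. Control 2 was the higher of the controls for TGFB2, and it still lay below both knockdown libraries. TGFB2 thus rose by 36.2% (log2 fold change 0.45, SE 0.08, edgeR adjusted p = 0.000298). The third ligand, TGFB3, which was looked up after its values were seen, was counted only 36 and 18 times in the controls, against 17 and 12 times with siRNA to SBF2-AS1 (log2 fold change -0.79, edgeR adjusted p = 0.13). Without control 2 the TGFB3 value was -1.22 and passed (edgeR adjusted p = 0.037).

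Levels of different genes were set side by side only as CPM per kb of the union of annotated exons. On that scale TGFB1 made up 80.3% and 77.2% of the TGFB1 and TGFB2 sum in the controls, against 77.8% and 77.9% in the knockdown. These shares overlapped between the groups, while the sum went from 61.5 ± 0.349 to 80.5 ± 2.72 CPM per kb (SD, n = 2 each). With 2 libraries against 2 an exact two-sided permutation test cannot go below p = 0.333, which is the value for the sum. These levels are not corrected for GC and length; with that correction the log2 fold changes were 0.0803 for TGFB1 and 0.66 for TGFB2, so the balance of the 2 ligands depends on it. TGFB1 shares 215 exon bases (6.64% of its exon union) with HNRNPUL1 on the opposite strand, and no source used here says whether the counting used strand. HNRNPUL1, an RNA-binding protein, was counted 7873 and 8354 times in the controls against 6739 and 6375 times in the knockdown. What part its reads have in the TGFB1 counts was not tested. TGFB2 shares 26.6% of its exon union with TGFB2-OT1 on the same strand, which was not analysed here.

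The promoters of the 2 ligand genes are shown because both genes were called higher while their upstream sequences differ in composition; with the correction for GC and length described further on, TGFB1 was at 0.0803 and not called and TGFB2 at 0.66. The 250 bases before the start in RefSeq (GRCh38.p14, 5′ to 3′ on the strand of the gene) are given with every match to the searched motifs in capitals.
TGFB1, chr19:41353923-41354172 (-): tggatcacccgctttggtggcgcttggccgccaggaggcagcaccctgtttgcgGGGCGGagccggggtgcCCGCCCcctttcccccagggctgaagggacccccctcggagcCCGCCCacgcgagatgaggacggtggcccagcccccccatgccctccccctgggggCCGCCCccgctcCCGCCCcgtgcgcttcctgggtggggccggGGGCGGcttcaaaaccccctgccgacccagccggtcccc
TGFB2, chr1:218345086-218345335 (+): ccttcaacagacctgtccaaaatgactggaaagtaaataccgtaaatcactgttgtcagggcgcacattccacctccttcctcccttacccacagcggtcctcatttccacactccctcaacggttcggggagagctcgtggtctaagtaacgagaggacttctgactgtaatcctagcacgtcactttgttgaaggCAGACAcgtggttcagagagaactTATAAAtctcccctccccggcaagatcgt
The motifs, searched on both strands, were the GC box GGGCGG, the TATA box TATAAA, the SMAD element CAGACA, the SMAD palindrome GTCTAGAC and the AP-1 site TGAGTCA. The TGFB1 window is 76.8% G or C and holds 6 GC boxes and no other of these motifs. The TGFB2 window is 50.4% G or C and holds 1 TATA box and 1 SMAD element. Its RefSeq start does not match the longest GENCODE transcript, and the window ends before the GENCODE gene start at 218346235. Among 35116 RefSeq promoter windows of the same length, 42.6% hold a GC box, 10.7% the TATA box and 13.6% the SMAD element. All 10 genes matched the RefSeq promoters, with 22 windows because several have more than 1 start. Some windows of a gene overlap, and TGFBR1 has more windows than any other gene. Shares of the 22 windows therefore weigh the genes unequally and were not tested against the shares of all windows. Of the 22 windows 13 (59.1%) hold a GC box, 6 (27.3%) the SMAD element and 1 (4.55%) the TATA box. The GC box windows belong to 8 of the 10 genes and those with the SMAD element to LTBP1, LTBP4, TGFB2 and TGFBR1. No window holds the AP-1 site or the SMAD palindrome, which 4.2% and 0.182% of all windows hold. A match of letters is a description and not a binding site.

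Among the receptors, TGFBR2 and TGFBR1 rose and TGFBR3 fell. TGFBR2, the type II kinase that binds the ligand, stood at 266 and 262 CPM in the controls and 352 and 359 CPM in the knockdown. The groups were far apart against a difference of 0.02 on the log2 scale between the controls, and the gene rose by 34.6% (log2 fold change 0.43, SE 0.07, edgeR adjusted p = 3.16e-05). TGFBR1, the type I kinase that phosphorylates SMAD2 and SMAD3, stood at 35.9 and 35.1 CPM in the controls and 43.8 and 47.6 CPM in the knockdown (log2 fold change 0.36, SE 0.09, edgeR adjusted p = 0.00406). Without Knockdown-732 the TGFBR1 call was lost by a narrow margin (log2 fold change 0.29, edgeR adjusted p = 0.0500136).

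TGFBR3, or betaglycan, is a co-receptor without a kinase that presents ligands, TGF-beta 2 above all, to TGFBR2. It stood at 29.1 and 30.7 CPM in the controls and 24.5 and 22.7 CPM in the knockdown, with 377 and 406 counts against 288 and 288. It was the only one of the 10 genes lower in both knockdown libraries, by 21.2% (log2 fold change -0.34, SE 0.11, edgeR adjusted p = 0.0185). The call was lost without control 2 (edgeR adjusted p = 0.102), without Knockdown-732 (0.0942) and in DESeq2 (adjusted p = 0.0875), with the value between -0.41 and -0.30 over 13 alternatives. Per kb, TGFBR3 made up 5.14% and 5.47% of the sum of the 3 receptor genes in the controls, against 3.34% and 3.04% in the knockdown. TGFBR2 made up 86.8% and 86.6% in the controls, against 89.1% and 88.9% in the knockdown, so the pool consisted mostly of TGFBR2 in every library. The share of TGFBR1 was 8.01 ± 0.0608% and 7.86 ± 0.351% (SD, n = 2 each), and overlapped between the groups. These shares are not corrected for GC and length.

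All 4 LTBP genes rose, LTBP2, LTBP3 and LTBP4 by 1.48-fold to 1.60-fold and LTBP1 by 1.17-fold. LTBP4, which binds the latent complex of TGF-beta 1 and supports elastic fibre assembly, stood at 163 and 165 CPM in the controls and 277 and 249 CPM in the knockdown (log2 fold change 0.68, SE 0.07, edgeR adjusted p = 3.82e-07). LTBP3, which binds latent TGF-beta, stood at 127 and 125 CPM in the controls and 207 and 190 CPM in the knockdown (log2 fold change 0.65, SE 0.07, edgeR adjusted p = 5.65e-07). For both genes Knockdown-670 was the higher of the knockdown libraries, and the controls lay within 0.03 of each other on the log2 scale. LTBP2, a fibrillin-microfibril protein that does not bind latent TGF-beta, stood at 36.0 and 39.8 CPM in the controls and at 56.5 and 56.1 CPM in the knockdown (log2 fold change 0.57, SE 0.09, edgeR adjusted p = 4.82e-05).

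LTBP1, the prototype carrier of the latent complex, stood at 52.1 and 49.96 CPM in the controls and 61.0 and 58.0 CPM in the knockdown. The groups did not overlap, but the log2 fold change of 0.22 (SE 0.08) passed only narrowly (edgeR adjusted p = 0.0393). The call was lost when any 1 of the 4 libraries was left out (edgeR adjusted p 0.0630 to 0.184), with library size only as scaling (0.14) and in DESeq2 (0.156). Per kb, LTBP1 made up 16.3% and 15.6% of the LTBP sum in the controls, against 12.1% and 12.5% in the knockdown. LTBP4 made up 46.1% and 46.6% in the controls, against 49.7% and 48.5% in the knockdown. The LTBP sum went from 43.7 ± 0.149 to 66.1 ± 3.97 CPM per kb (SD, n = 2 each). The exact two-sided permutation p was 0.333, the smallest possible. This sum and these shares are not corrected for GC and length. With that correction the log2 fold changes were -0.025 for LTBP1, 0.15 for LTBP2, 0.19 for LTBP3 and 0.21 for LTBP4. The shares also depend on the length used, as LTBP3 stood at 12.3 CPM per kb of exon union in the controls but 28.4 by its longest transcript.

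TGFBI, a secreted matrix protein named for its induction by TGF-beta that binds integrins and collagens, was the most abundant of the 10 genes and rose most. It stood at 1348 and 1269 CPM in the controls and 2732 and 2663 CPM in the knockdown. Both knockdown libraries lay well above both controls and differed by 0.04 on the log2 scale, and the rise was 2.06-fold (log2 fold change 1.04, SE 0.07, edgeR adjusted p = 8.72e-10). Of all genes tested, 94.5% had a lower log2 fold change. TGFBI lies on the + strand of chromosome 5 (GENCODE on GRCh38, 136028895 to 136063818).

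The promoters of TGFBI and TGFBR3 are shown as those of the gene with the largest rise and of the gene that fell, with the same motifs in capitals.
TGFBI, chr5:136028738-136028987 (+): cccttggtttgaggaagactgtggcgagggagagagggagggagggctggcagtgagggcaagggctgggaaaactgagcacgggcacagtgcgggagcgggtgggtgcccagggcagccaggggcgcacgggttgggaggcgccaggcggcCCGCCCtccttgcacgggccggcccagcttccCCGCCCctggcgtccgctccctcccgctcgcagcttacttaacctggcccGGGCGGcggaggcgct
TGFBR3, chr1:91886152-91886401 (-): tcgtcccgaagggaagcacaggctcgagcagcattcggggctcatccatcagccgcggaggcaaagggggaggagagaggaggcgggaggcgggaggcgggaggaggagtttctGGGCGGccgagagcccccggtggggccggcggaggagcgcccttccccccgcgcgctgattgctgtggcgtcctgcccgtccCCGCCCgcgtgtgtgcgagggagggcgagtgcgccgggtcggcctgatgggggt
Both are rich in G and C, 72.8% for TGFBI and 73.6% for TGFBR3. The TGFBI window holds 3 GC boxes and that of TGFBR3 holds 2, and neither holds another of the searched motifs. Whether these motifs bear on the direction of either gene was not tested. The RefSeq start of TGFBI does not match the longest GENCODE transcript, and its window runs past the GENCODE gene start at 136028895. For TGFBR3 the start does match, though its window lies within the GENCODE span of the gene.

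**Figure D2:**
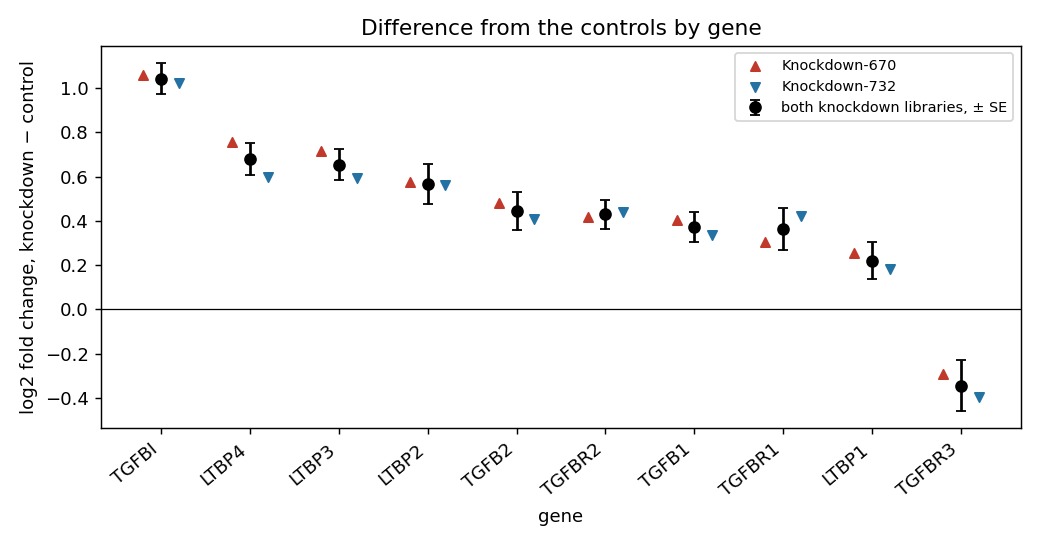
Log2 fold change of each gene, knockdown minus control; black points with bars are the estimate from both knockdown libraries ± SE, and triangles are each knockdown library against the 2 controls. Both triangles lie on the same side of 0 for every gene, below it only for TGFBR3.

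The 2 knockdown libraries gave similar values gene by gene. Taken singly against both controls, Knockdown-670 gave log2 fold changes from -0.29 (TGFBR3) to 1.06 (TGFBI), and Knockdown-732 from -0.40 to 1.02 for the same genes. The difference Knockdown-732 minus Knockdown-670 ran from -0.16 for LTBP4 to 0.12 for TGFBR1 on the log2 scale. None of the 10 differences passed in a 3-group edgeR fit, whose residual spread comes from the controls alone (smallest unadjusted p = 0.149, and 0 of 10 under 0.05). In that comparison 0.403% of all genes passed. With 1 library on each side this does not show that the libraries were alike.

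The order of the levels was the same at its top in both groups. Per kb of exon union the controls ranged from TGFBI at 168 ± 7.11 through TGFBR2 at 56.1 ± 0.4996, TGFB1 at 48.4 ± 1.08 and LTBP4 at 20.2 ± 0.221 CPM per kb (SD, n = 2 each). Next came TGFB2 at 13.1 ± 1.43 and LTBP3 at 12.3 ± 0.160, whose control libraries overlapped. Lower still were LTBP1 at 6.96 ± 0.208, TGFBR1 at 5.19 ± 0.0754, LTBP2 at 4.17 ± 0.296 and TGFBR3 at 3.44 ± 0.125 CPM per kb. In the knockdown the leading 4 genes kept their places, LTBP3 at 19.3 ± 1.17 stood above TGFB2 at 17.8 ± 0.638, and TGFBR3 at 2.71 ± 0.143 was again lowest. The length used changes part of the order. By the longest transcript LTBP2, at 4.43 CPM per kb in the controls, lay below TGFBR3 at 4.63, and in the knockdown TGFBR3 was lowest at 3.65. LTBP3 has 10298 bases of exon union and a longest transcript of 4443 bases; divided by the latter its control level was 28.4 CPM per kb, above the 13.3 of TGFB2.

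Over all genes tested, fold changes differed with transcript composition. Among the 10 genes, TGFBI, with the largest rise, is at 50.6% G and C, and the next largest rises were those of the GC-rich LTBP4, LTBP3 and LTBP2. In the longest transcript, G and C made up 67.8% in LTBP3, 66.7% in LTBP4, 63.5% in TGFB1 and 57.2% in LTBP2, but 38.9% in TGFB2 and 39.0% in TGFBR1. Without correction for GC and length, the rises of TGFB1 (0.37), TGFB2 (0.45) and TGFBR1 (0.36) were close in size. Those of LTBP4 (0.68), LTBP3 (0.65) and LTBP2 (0.57) were larger. Over all genes tested, the median log2 fold change was -0.27 for the 2175 genes under 40% GC and 0.29 for the 2082 genes of 60% and over, where 41.4% of genes rose. The same medians were -0.01 and 0.05 for control 2 minus control 1. A correction for GC content and transcript length was added after the data were seen. With it TGFB1 stood at 0.0803 on the log2 scale (edgeR adjusted p = 0.33), LTBP2 at 0.15 (0.155) and LTBP1 at -0.025 (0.833), and none of these 3 passed. LTBP3 at 0.19 (edgeR adjusted p = 0.0302) and LTBP4 at 0.21 (0.0167) still passed, at a smaller size.

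The other 5 genes passed with the correction as well. TGFBI stood at 0.89 (edgeR adjusted p = 1.53e-10), TGFBR2 at 0.37 (3.10e-05) and TGFBR3 at -0.36 (0.0135). The AT-rich pair came out higher, TGFB2 at 0.66 (edgeR adjusted p = 2.85e-06) and TGFBR1 at 0.52 (7.21e-05). The median of the 10 genes was 0.20 with the correction, and 6 were higher and 1 lower, where 42.7% of all genes passed.

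**Figure D3:**
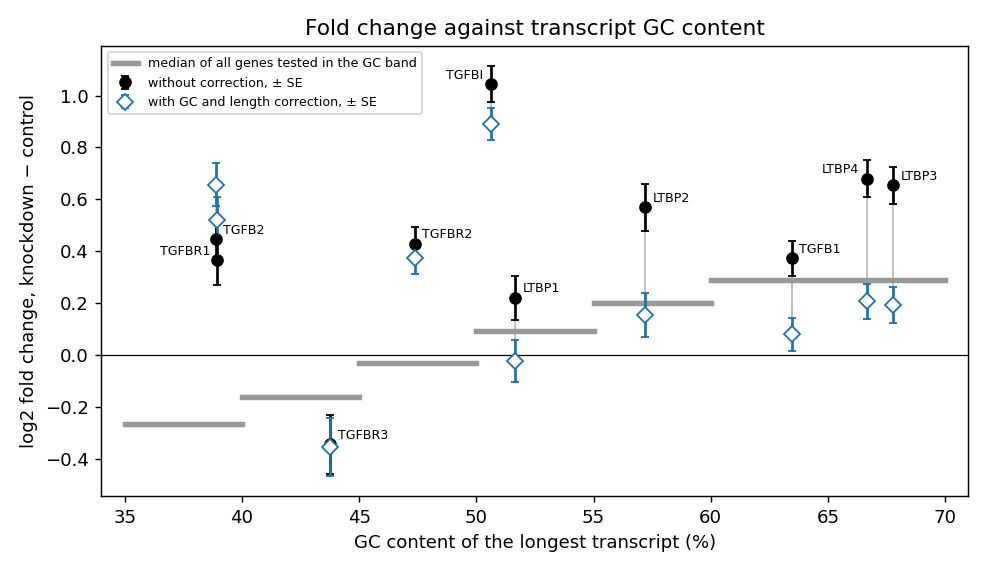
Log2 fold change of the 10 genes against the GC content of the longest transcript, without (black) and with (blue diamonds) the GC and length correction, bars ± SE; grey lines are medians of all genes tested in each GC band, the outer bands being drawn from 35 and to 70. With the correction the points of TGFB1 and the 4 LTBP genes move down and those of TGFB2 and TGFBR1 move up, while TGFBR3 goes from -0.34 to -0.36.

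Around these 10 genes, 124 further pathway genes in 7 lists were read in the same fit, and 105 were expressed highly enough to be tested. Of those, 39 rose, 22 fell and 44 did not pass, with a median log2 fold change of 0.18, where 23.5% of all genes rose and 22.8% fell. The counts of each list below are to be read against these shares over all genes. The lists were chosen with earlier results of these data known, and some genes stand in 2 lists.

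The SMAD proteins, which carry the signal to the nucleus, did not move together. Of 8 members 1 rose, 3 fell and 4 did not pass, with a median log2 fold change of -0.14. SMAD3 rose from 588 to 958 CPM (log2 fold change 0.70, edgeR adjusted p = 1.00e-07), from 7443 and 7951 control counts to 11305 and 12138. SMAD2, its close relative and fellow substrate of TGFBR1, fell from 127 to 77.4 CPM (log2 fold change -0.71, edgeR adjusted p = 4.41e-07). The shared partner SMAD4 was at -0.52 (edgeR adjusted p = 0.000711) and the inhibitory SMAD6 at -0.45 (0.00317). The inhibitory SMAD7, itself a target of the pathway, was at 0.25 (edgeR adjusted p = 0.14) and did not pass. SMAD1 and SMAD5, of the BMP arm, were at -0.17 and -0.11, and SMAD9, with 8 to 16 counts, at 0.28. After correction for GC and length, SMAD3 stood at 0.49, SMAD2 at -0.75 and SMAD4 at -0.48, and SMAD6 at -0.81.

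Genes that activate the latent complex or share its matrix rose more often than they fell, 11 against 4 of 22 tested. FURIN, the convertase that cuts the precursor, rose from 927 and 1099 control counts to 1469 and 1471 (log2 fold change 0.64, edgeR adjusted p = 4.77e-06), or 0.27 after correction for GC and length. LRRC32, which anchors latent TGF-beta at the cell surface, rose from 4.06 to 14.9 CPM (log2 fold change 1.88, edgeR adjusted p = 1.91e-07). FBN1, the fibrillin on which LTBPs are deposited, rose from 41.7 to 73.2 CPM (0.81), and the crosslinking enzyme TGM2 from 781 to 1732 CPM (1.15). The plasminogen activator PLAU rose from 563 to 942 CPM (0.74).

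The integrins that release TGF-beta share the alpha chain ITGAV and differ in their beta chain. ITGAV fell from 261 to 131 CPM (log2 fold change -0.99, edgeR adjusted p = 2.29e-09). Of its partners, ITGB3 rose with 35 and 44 counts against 154 and 165 (log2 fold change 2.11, edgeR adjusted p = 6.32e-08) and ITGB8 rose with 45 and 37 against 66 and 80 (0.92). ITGB6, the epithelial partner, fell with 44 and 56 counts against 19 and 17 (log2 fold change -1.37, edgeR adjusted p = 0.00134), and ITGB5 was at -0.30, or -0.53 after correction for GC and length. ITGB1, a further beta chain in this list, rose from 1414 to 1736.5 CPM (0.30, edgeR adjusted p = 0.00174). Of these, ITGB1, ITGB5, ITGB6, ITGB8 and FURIN were named after their values were seen.

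Of 18 other ligand genes 13 were tested, of which 4 rose and 2 fell (median log2 fold change 0.44). BMP4 fell from 100.2 to 52.2 CPM (-0.94, edgeR adjusted p = 7.67e-08), and the activin subunit INHBB from 42.5 to 27.8 CPM (-0.61). BMP6 rose from 17.5 to 26.1 CPM (0.58), BMP2 from 2.22 to 4.22 CPM (0.92) and BMP7 from 2.72 to 4.53 CPM (0.74). BMP1, a metalloprotease that processes matrix proteins and not a ligand despite its name and place in this list, rose from 67.8 to 98.2 CPM (0.53). The 4 higher genes were 2 in DESeq2, with at least 5 CPM in 2 libraries, without control 2, and after correction for GC and length. BMP2 (adjusted p = 0.0888) and BMP7 (0.167) were the ones lost in DESeq2 and also without control 2, and BMP1 (0.18, edgeR adjusted p = 0.0614) and BMP7 (0.49, 0.146) those lost after the correction. Single knockdown libraries mattered too: BMP2 was lost without Knockdown-670 (edgeR adjusted p = 0.0525) and BMP7 without Knockdown-732 (0.141).

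Of 13 other receptor genes 9 were tested, with 1 higher and 3 lower (median log2 fold change 0.03). The BMP receptor BMPR1B fell from 31.1 to 15.9 CPM (-0.96, edgeR adjusted p = 4.42e-06) and the decoy receptor BAMBI from 52.3 to 30.6 CPM (-0.77, 5.21e-06). ACVRL1 rose, at a low level of 8 and 5 counts against 19 and 26 (1.86, edgeR adjusted p = 0.00282). The single higher receptor became 2 with upper-quartile scaling and without Knockdown-732, and 3 after correction for GC and length.

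Of 23 modulators inside the cell 6 were higher, 7 lower and 10 did not pass (median log2 fold change 0.04). These counts are near the shares over all genes tested, 23.5% higher and 22.8% lower. The SMAD repressor SKIL fell from 58.9 to 37.2 CPM (-0.66, edgeR adjusted p = 1.92e-05), and was at -0.33 after correction for GC and length. The deubiquitinase USP15 fell from 49.4 to 32.2 CPM (-0.62) and the phosphatase PPM1A from 55.01 to 37.2 CPM (-0.56), or -0.35 with that correction. The transcriptional cofactor CITED2 rose from 15.3 to 24.7 CPM (0.69) and the repressor TGIF2 from 13.8 to 20.4 CPM (0.56), a call that was lost without control 1 (edgeR adjusted p = 0.0673). Of 14 extracellular antagonists 9 were tested, of which 4 rose and 5 did not pass (median 0.37). GREM1, a BMP antagonist, rose from 4.31 to 17.7 CPM (2.03, edgeR adjusted p = 3.16e-08), the activin antagonist FSTL3 from 112 to 184 CPM (0.72) and the protease HTRA1 from 57.1 to 87.3 CPM (0.61). The FSTL3 value was 0.43 with the GC and length correction.

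Of 28 TGF-beta target genes 26 were tested, with 12 higher, 4 lower and 10 that did not pass (median log2 fold change 0.26). ANGPTL4, an inhibitor of lipoprotein lipase, rose from 1308 and 1394 control counts to 5476 and 5313 (2.10, edgeR adjusted p = 2.19e-13). The collagen COL5A1 rose from 52.0 to 149 CPM (1.52) and the cell cycle inhibitor CDKN1A from 217 to 364 CPM (0.75). After correction for GC and length COL5A1 was at 1.05, CDKN1A at 0.58 and ANGPTL4 at 1.88. VEGFA, an angiogenic growth factor, rose from 106 to 209.7 CPM (0.99), or 0.59 after correction for GC and length. ID2 fell from 101 to 41.8 CPM (-1.28, edgeR adjusted p = 5.54e-10) and ID3 from 336 to 148 CPM (-1.18, 4.32e-10). With that correction ID2 was at -1.33 and ID3 at -1.25. PMEPA1 and SMAD7, feedback inhibitors that SMAD3 induces, were at 0.14 (edgeR adjusted p = 0.0971) and 0.25 and did not pass; PMEPA1 was looked up after its value was seen. The list was not sorted by the direction in which TGF-beta moves each gene, so its counts do not give the state of the pathway. Several of these genes are also targets of other pathways.

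**Figure D4:**
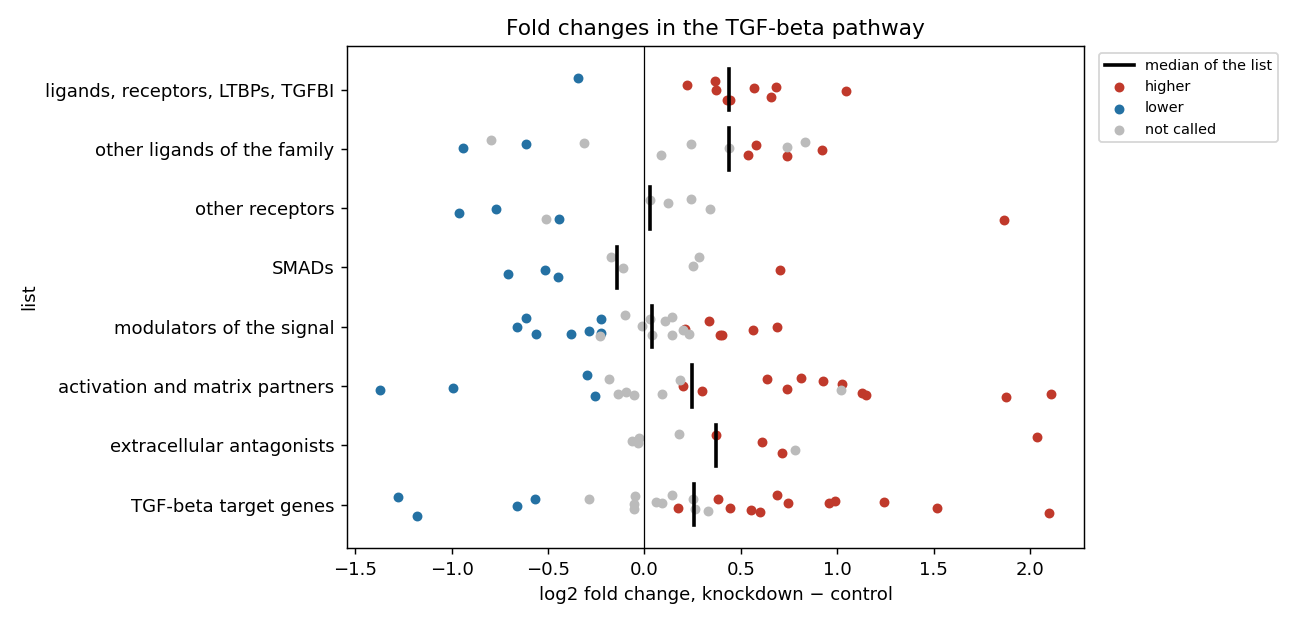
Log2 fold change, knockdown minus control, of every tested gene of the 10-gene set and the 7 pathway lists; red genes rose, blue fell and grey did not pass at an edgeR adjusted p of 0.05, and black bars are list medians. The median is 0.44 for the 10 genes and -0.14 for the SMADs, whose points lie on both sides of 0.

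Some genes had nearly the same pattern as TGFBI or TGFBR3 over the 4 libraries, by Euclidean distance of centred log2 CPM among 11904 genes that averaged 5 CPM or more. For TGFBI the nearest 3 were AFAP1L1 (distance 0.0471), WBP2 (0.0484) and FAM127A (0.0536). WBP2, for example, stood at 116 and 113 CPM in the controls and 231 and 229 CPM in the knockdown. For TGFBR3 the nearest were FBXL17 (distance 0.0125), SNHG17 (0.0197) and COPG2 (0.0251). With 4 libraries in 2 groups such likeness mostly means an equal fold change.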

How the data were processed

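RNA-seq counts were measured in 4 A549 libraries, 2 per group, grouped by sample title. The authors deposited raw counts per gene symbol; Ion Proton sequencing is per the labels' protocols and genome build GRCh37 per the submitters' processing notes. Which aligner, counter and annotation were used, and whether strand was, is not given in the sources. Totals were 12149767 to 12938143 counts per library, and 0 columns belonged to no sample. The chi-square per gene between replicates was 3.72 for the controls and 3.42 for the knockdown, above the 1 of counting noise, so no library was counted as a copy.

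Counts were analysed in R 4.3.3 by edgeR 4.0.16, with filterByExpr, TMM, robust quasi-likelihood fits (glmQLFit, glmQLFTest) and Benjamini-Hochberg adjustment over 16120 genes at 0.05. CPM are TMM-scaled, marker sums by library size. Standard errors (SE) are the absolute log2 fold change over the square root of the F statistic. The coefficient of biological variation was 6.64%. As alternatives, scaling was by upper quartile, by DESeq2 size factors or by library size only, and 2 other filters were tried, with DESeq2 1.42.0, limma-voom (limma 3.58.1), glmTreat against 1.2-fold, each library left out, and an added offset for GC content and length (mgcv 1.9.3; 91.0% of genes matched). Lengths, GC and positions came from GENCODE 29 on GRCh38 by symbol (28573 direct, 1206 by synonym, 10426 unmatched), not the authors' build; promoters came from RefSeq GRCh38.p14. The members and lists were chosen with earlier results of these data known. A further 2 genes of the target list are not reported here and were left out of its counts after the results were known. Named were all 10 genes, SBF2-AS1, all SMADs, per list up to 6 called genes of smallest p with non-overlapping libraries and a log2 change of at least 0.5, and the 3 genes nearest in pattern to the largest rise and fall; others are marked in the text. Counts of 15893 genes were also simulated for 2 against 2 libraries, with only 50 genes changed at each fold. There edgeR called 22% of genes changed 1.25-fold, 64% at 1.5-fold, 84% at 2-fold and 98% at 4-fold. Of 144 calls, 10 were unchanged genes. In the data 46.3% of genes were called, so the adjusted threshold was less strict and these shares are not the power of this comparison.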

Additional observations from a re-analysis of the deposited data

How the results depend on the processing

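Of the 9 higher and 1 lower genes, the counts were 6 and 0 with glmTreat against 1.2-fold, 8 and 0 in DESeq2, and 7 to 8 higher and 0 to 1 lower with a library left out. Over all genes glmTreat gave 2451 higher and 2229 lower, and among the pathway genes 14 lower. In glmTreat the log2 fold changes are those of the edgeR fit, and TGFB1 (0.37, adjusted p = 0.0614), TGFBR1 (0.36, 0.137), TGFBR3 (-0.34, 0.22) and LTBP1 (0.22, 0.64) did not pass. In DESeq2 TGFBR3 (-0.34, adjusted p = 0.0875) and LTBP1 (0.22, 0.156) did not pass, and with library size only LTBP1 (0.16, 0.14) did not. With the GC and length correction, added after the data were seen, TGFB1 (0.0803), LTBP2 (0.15) and LTBP1 (-0.025, the opposite sign) did not pass. With 1 library left out, where the lone sample is assumed to vary like the other group, TGFBR1 ran from 0.29 to 0.42, TGFBR3 from -0.40 to -0.30 and LTBP1 from 0.19 to 0.25. TGFB2, TGFBR2, LTBP3, LTBP4 and TGFBI kept their direction and passed under all 13 alternatives, and SBF2-AS1 under the 12 that tested it, the stricter filter of 5 CPM leaving it out. Among genes named for the pathway only, the sign turned for SMAD1 (0.12), SMAD5 (0.10), SMAD7 (-0.066) and PMEPA1 (-0.097) with the GC and length correction and for SMAD9 without Knockdown-732 (-0.25 to 0.65 with a library left out), none of which had passed. No paired analysis was possible because the groups share no replicate number. With 2 libraries per group, the LTBP1 change passed only narrowly in the edgeR fit (adjusted p = 0.0393).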
